A study of Mus musculus with 6 samples.

Results

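The nuclear genes for the respiratory chain and ATP synthase were followed in primary mouse CD8+ T cells, lymphocytes that kill infected and tumour cells, cultured with the trans fatty acid trans-vaccenic acid (TVA) or with its solvent. Members were picked by symbol, with earlier results of these data known. They were the Nduf genes of complex I without its assembly factors, the Sdha to Sdhd genes of complex II, the Uqcr genes and Cyc1 of complex III, the Cox4 to Cox8 genes of complex IV and the Atp5 genes of ATP synthase. This rule found 86 of the 24589 genes listed. Complex I had 36 of them, complex II 4, complex III 9, complex IV 20, counting Ndufa4 and its paralogue Ndufa4l2 there, and ATP synthase 15. The remaining 2, Atp5s and Atp5sl, share the Atp5 symbol but are not subunits of the enzyme.

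There were 6 bulk RNA-seq libraries. All came from wild-type (WT) cells, which the study's methods trace to C57BL/6 spleens and peripheral lymph nodes and to a purification on magnetic beads, and all were stimulated through CD3 and CD28 in Click's medium. The DMSO group (3 libraries) then received solvent, and the TVA group (3 libraries) 20 µM TVA, both for 24 h. The study's methods describe its mice as matched by age and sex, young adults of both sexes, and the labels do not say whether libraries of a group came from separate mice or cultures. The p-values therefore measure only the spread between these libraries, which may be technical.

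The respiratory chain moves electrons from NADH (entering at complex I) and succinate (entering at complex II) through ubiquinone, complex III and cytochrome c to oxygen at complex IV. Complexes I, III and IV pump protons across the inner mitochondrial membrane, and ATP synthase uses the return flow to make ATP. Activated CD8+ T cells are known to build mitochondrial mass as they grow, and most subunits of these enzymes are encoded in the nucleus and imported. The subunits encoded by mitochondrial DNA were not analysed here.

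Levels are TPM, which corrects for transcript length and library total, so that different genes can be set side by side). Changes are TVA minus DMSO on the log2(TPM + 1) scale, with the standard error (SE) of the fit, and understate the change of genes at a few TPM. A gene was tested where its TPM was at least 1 in at least 3 libraries, which 10866 genes and 81 of the 86 members passed. A change was called at an adjusted p under 0.05 (limma, two-sided, Benjamini-Hochberg over all genes tested). Sequencing depth is unknown, because TPM does not keep it. In bulk RNA, a change in the RNA of each cell and a change in the mixture of cells cannot be told apart.

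The T cell label was met by the levels of the markers, with Cd8a at 284 ± 13.8 TPM in DMSO and 315 ± 3.29 TPM in TVA (SD, n = 3). Cd8b1 was at 318.7 ± 11.45 and 311.7 ± 2.72 TPM. The summed level of 8 CD8 T cell markers was 2048 to 2183 TPM in DMSO libraries and 2278 to 2303 TPM in TVA libraries. Of these 8, 5 had a fitted change above 0 and 3 below, and Cd3g alone was called (higher, adjusted p = 0.0063 by limma). Of 8 myeloid markers, 7 were tested and 2 were higher with TVA (Lyz2 and S100a9), and their summed level was 53.2 to 54.2 TPM in DMSO and 68.5 to 73.4 TPM in TVA. Summed levels of the other lists were 11.4 to 15.2 TPM against 10.9 to 11.2 TPM for 7 B cell markers, 15.1 to 16.2 TPM against 12.2 to 14.2 TPM for 4 CD4 T cell markers, and 37.9 to 61.4 TPM against 48.6 to 58.7 TPM for 6 red cell markers (DMSO first). The 5 NK cell markers summed to 21.6 to 24.2 TPM and 32.9 to 33.1 TPM, nearly all of it Eomes, while Ncr1, Klrb1c, Klra8 and Klra4 were at 0.43 TPM or less in every library. In these other lists Eomes was called higher (0.55, adjusted p = 0.0031 by limma), and Cd40lg and Hbb-bt were called lower (adjusted p = 0.030 and 0.012). Of all genes tested, 8.51% were called. The part of these marker changes in the results was not tested.

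One library stood apart and bears on most results. DMSO replicate 2 correlated with the TVA libraries at 0.996 (Pearson r of log2(TPM + 1) across genes, which are not independent; 0.9957 to 0.9964) and with the other DMSO libraries at 0.9929 to 0.9945. For 51 of the 81 tested members (63.0%) it lay nearer the TVA mean than the mean of DMSO replicates 1 and 3, against 47.6% of all genes tested. Members are therefore given with and without it. It was singled out by these same values. Leaving out the DMSO library nearest TVA tends to widen the difference and to narrow the DMSO spread. Adjusted p-values without it are therefore likely too small and are no separate evidence.

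The upstream sequences of 5 members are shown here because the results turn on these genes. Ndufb2 and Ndufb10 were the members called, and Ndufab1, Atp5k and Cox8a were among the largest changes of their complexes. Each is the RefSeq window of 300 bases around the start of transcription in GRCm38.p6, written 5′ to 3′ on the gene's strand. The windows are chr6:39592315-39592614 (plus strand) for Ndufb2, chr17:24724374-24724673 (minus) for Ndufb10, chr7:122101799-122102098 (minus) for Ndufab1, chr5:108434350-108434649 (minus) for Atp5k and chr19:7217567-7217866 (minus) for Cox8a. Capitals mark matches, on either strand, to the letters of 4 motifs named after factors known for such genes, which were GCGCA, any base and GCGC in a row for NRF1, CCGGAAG for ETS factors such as GABP, AANATGGCG for YY1 and TGACGTCA for the cAMP response element (CRE).
Ndufb2: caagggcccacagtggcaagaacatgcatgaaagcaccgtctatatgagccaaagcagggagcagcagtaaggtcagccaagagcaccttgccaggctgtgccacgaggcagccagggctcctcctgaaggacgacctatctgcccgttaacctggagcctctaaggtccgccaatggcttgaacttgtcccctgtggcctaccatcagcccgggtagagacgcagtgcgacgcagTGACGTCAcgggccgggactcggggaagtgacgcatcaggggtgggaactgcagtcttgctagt
Ndufb10: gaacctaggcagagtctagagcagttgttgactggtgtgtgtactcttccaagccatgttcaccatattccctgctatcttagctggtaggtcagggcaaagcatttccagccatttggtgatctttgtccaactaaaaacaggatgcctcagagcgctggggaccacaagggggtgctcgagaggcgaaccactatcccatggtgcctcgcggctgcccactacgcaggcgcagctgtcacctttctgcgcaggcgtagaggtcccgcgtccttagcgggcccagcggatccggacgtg
Ndufab1: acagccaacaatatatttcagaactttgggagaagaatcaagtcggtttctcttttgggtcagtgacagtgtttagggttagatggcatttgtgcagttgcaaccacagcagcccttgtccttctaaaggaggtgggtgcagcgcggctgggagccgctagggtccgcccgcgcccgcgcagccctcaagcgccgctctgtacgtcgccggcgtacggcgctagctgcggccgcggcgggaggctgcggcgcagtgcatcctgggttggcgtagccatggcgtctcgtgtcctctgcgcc
Atp5k: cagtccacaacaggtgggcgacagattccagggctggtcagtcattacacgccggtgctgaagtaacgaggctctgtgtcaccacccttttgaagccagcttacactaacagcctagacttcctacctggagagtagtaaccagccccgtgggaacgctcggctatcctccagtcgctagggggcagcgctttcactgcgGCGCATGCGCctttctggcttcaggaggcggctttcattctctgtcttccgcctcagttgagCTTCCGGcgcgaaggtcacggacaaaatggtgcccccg
Cox8a: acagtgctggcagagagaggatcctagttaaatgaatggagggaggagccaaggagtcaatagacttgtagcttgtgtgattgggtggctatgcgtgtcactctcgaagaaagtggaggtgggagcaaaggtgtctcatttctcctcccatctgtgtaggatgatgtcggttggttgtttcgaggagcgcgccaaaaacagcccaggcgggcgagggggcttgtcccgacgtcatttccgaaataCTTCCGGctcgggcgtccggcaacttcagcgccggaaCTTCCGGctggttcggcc

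Of the 86 members, 70 matched an entry with such a window, and 41 of these held at least 1 of the 4 motifs. The NRF1 letters were in 17 (24.3%), against 5.19% of all 27025 windows and 12.6% of those of genes tested here. The ETS letters were in 16 (22.9%), which is close to the 22.4% of genes tested. The YY1 letters were in 11 (15.7%, against 6.6% of genes tested), and the CRE letters in 4, Ndufa10, Ndufa11, Ndufb2 and Uqcrfs1 (5.7%, against 3.9% of genes tested). The 5 windows shown differed in these letters. The Ndufb2 window held the CRE letters, whereas those of Ndufb10 and Ndufab1 held none of the 4, that of Atp5k held the NRF1 and ETS letters and that of Cox8a the ETS letters at 2 places. A match is a description of the sequence and shows no binding.

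With all 6 libraries, few members changed with TVA. Ndufb10 rose and Ndufb2 fell, which is 2 of 81 tested members (2.47%) where 8.51% of all genes tested were called (5.28% higher and 3.23% lower, limma). The fitted change was above 0 for 54 members and below 0 for 27, and its median was 0.05 (log2) against 0.04 for all genes. The TVA libraries all lay above the DMSO libraries for 24 members and all below for 8, while such separation was seen for 27.3% (above) and 11.2% (below) of all genes, 38.6% in all. At an unadjusted p under 0.05 there were 26 members, next to 31.8% of all genes. After a correction for transcript GC content, 6 members were called (Atp5o, Cyc1, Ndufa7, Ndufb10 and Uqcr11 higher, Ndufb2 lower), beside 9.64% of all genes. Cyc1, the cytochrome c1 of complex III, changed sign with this correction, from -0.02 (adjusted p = 0.786) to 0.17 (adjusted p = 0.040).

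**Figure D1:**
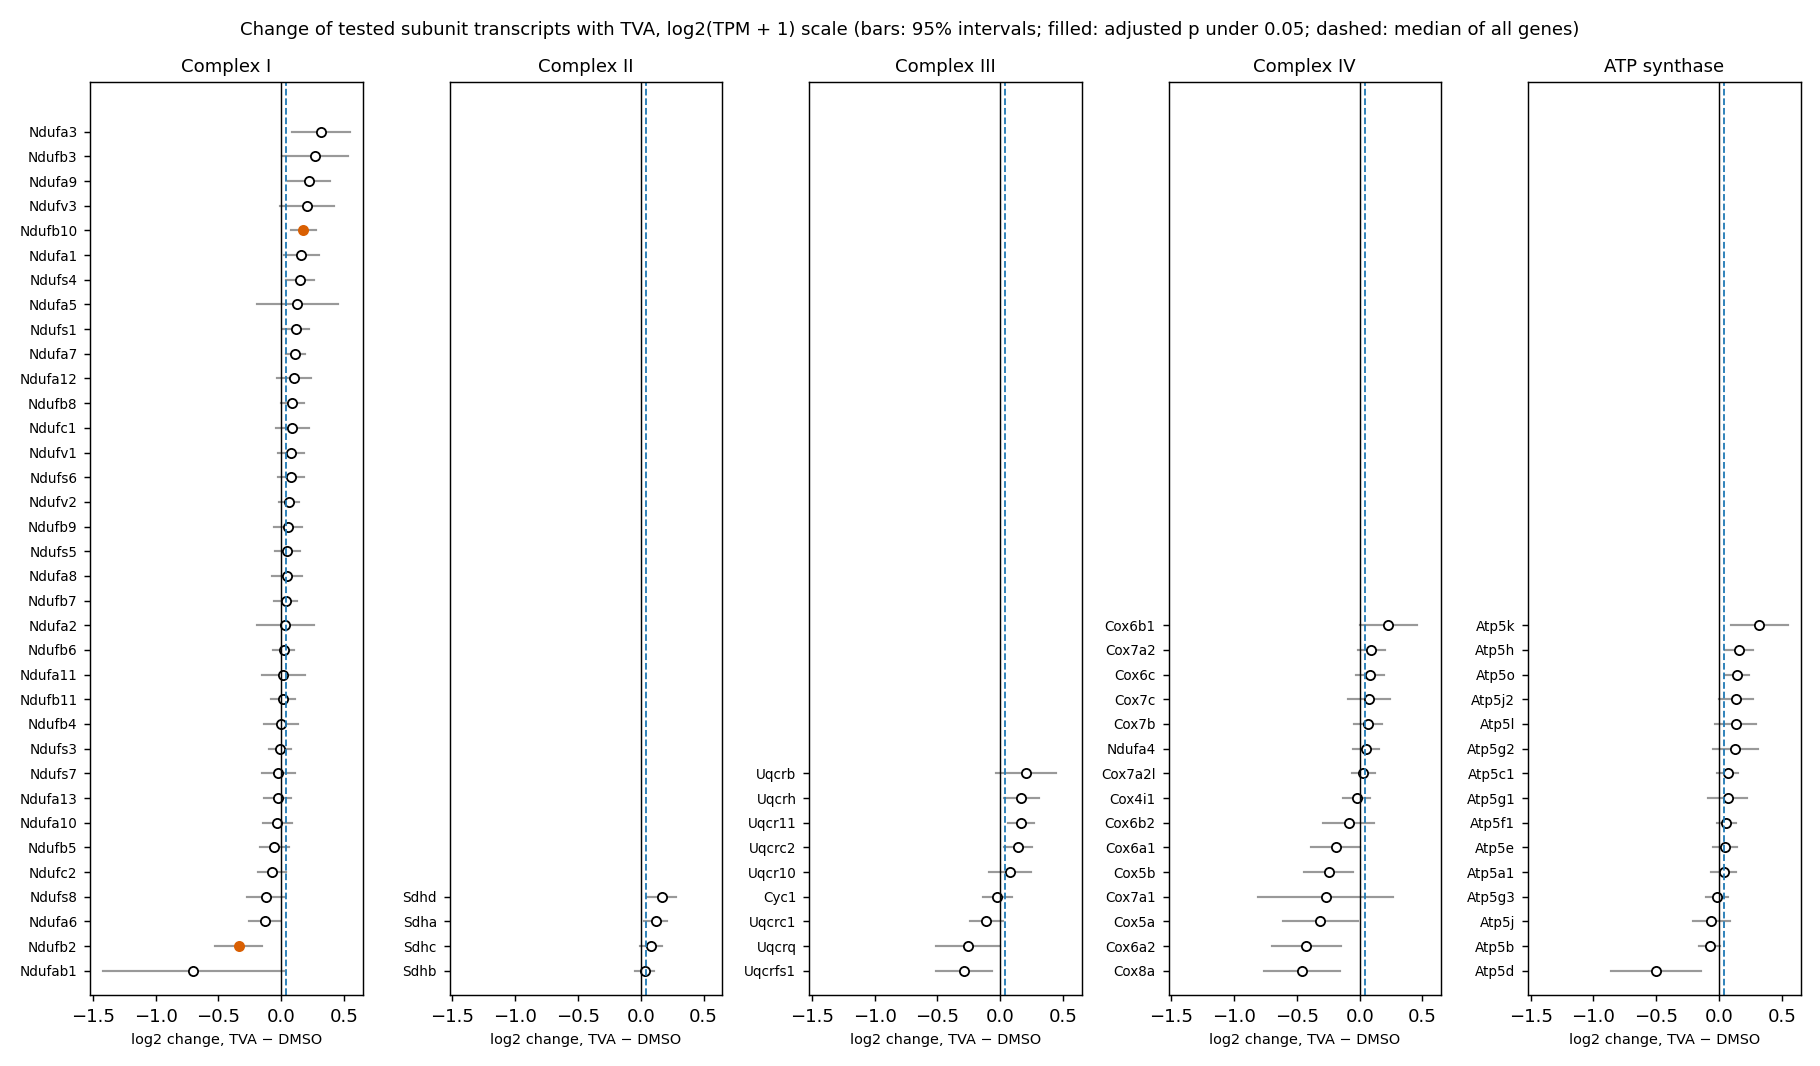
Log2 change (TVA minus DMSO, log2(TPM + 1) scale, horizontal axis) of tested subunit genes, each with its 95% interval as a bar, by complex; the dashed line is the median of all genes (0.04), and filled points have an adjusted p under 0.05. Ndufb10 and Ndufb2 are the filled points, and the widest interval is that of Ndufab1.

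The intervals limit how large an undetected change could be. The 95% interval of the change stayed within 1.5-fold in either direction for 75 of the 81 members, against 94.3% of all genes tested. The 6 members whose intervals reached past 1.5-fold were Atp5d, Cox5a, Cox6a2, Cox7a1, Cox8a and Ndufab1. Of these, Atp5d, Cox5a, Cox8a and Ndufab1 had DMSO replicate 2 far below the other DMSO libraries, and Cox6a2 and Cox7a1 were at a few TPM.

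Without DMSO replicate 2 the same fit called 27 of the 81 members (33.3%), beside 20.6% of all genes tested (11.3% higher and 9.38% lower). Since that library was left out for its nearness to TVA, this count is conditioned on the values. Members higher with TVA numbered 17 and members lower 10. By complex, 6 were higher and 3 lower in complex I, 2 and 0 in complex II, 3 and 2 in complex III, 2 and 4 in complex IV, and 4 and 1 in ATP synthase. The 10 lower members were Atp5d, Cox5a, Cox5b, Cox6a1, Cox8a, Ndufa6, Ndufab1, Ndufb2, Uqcrfs1 and Uqcrq. Over the tested members, the median distance from the TVA mean was 0.15 for DMSO replicate 1, 0.057 for DMSO replicate 2 and 0.11 for DMSO replicate 3 (absolute log2 difference), with 0.137, 0.082 and 0.111 over all genes. Since 1 library decides whether 2 or 27 members pass, the values of single libraries are given for each member described.

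**Figure D2:**
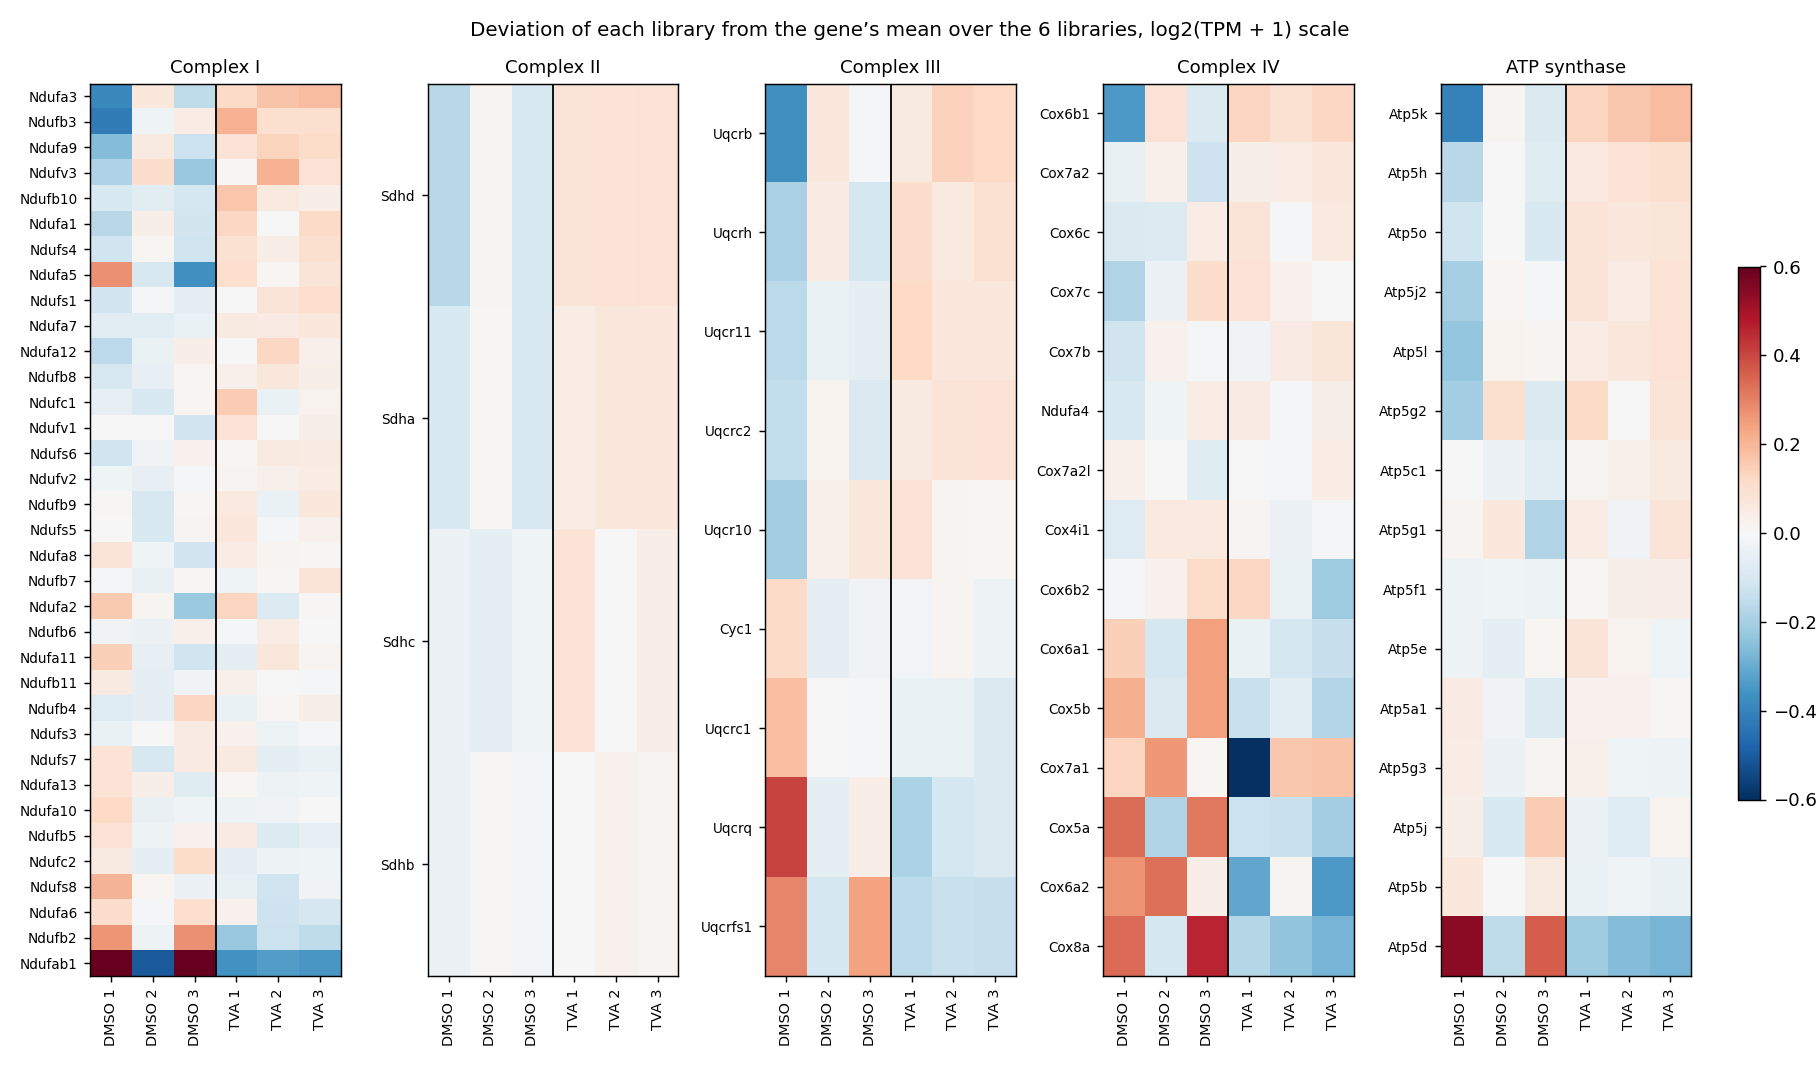
Deviation of each library (columns) from the mean of the 6 libraries on the log2(TPM + 1) scale, for tested subunit genes (rows, ordered by their change within a complex); red is above and blue below the mean, and colours end at ±0.6. In the rows of Ndufab1, Cox5a, Cox8a, Uqcrfs1 and Atp5d, DMSO 2 has the colour of the TVA libraries while DMSO 1 and DMSO 3 are red.

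Complex I, the NADH dehydrogenase, held both called members. Its genes had a median change of 0.05, with 25 above 0 and 11 below. Of the 36, 10 had an unadjusted p under 0.05, as did 31.8% of all genes tested. Of the 29 accessory subunits, 2 were called with all libraries (6.9%, beside 8.51% of all genes). Without DMSO replicate 2, 9 were called (31.0%, beside 20.6% of all genes).

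Ndufb2, an accessory subunit of the membrane arm of complex I, had 211, 172 and 212 TPM in DMSO replicates 1 to 3 and 150, 160 and 158 TPM in TVA. The TVA libraries were all lower than the DMSO libraries, and DMSO replicate 2 was the closest to them. Ndufb2 fell by 0.34 on the log2 scale (SE 0.082, adjusted p = 0.046 by limma), from 198 ± 23.0 to 156 ± 5.58 TPM (SD, n = 3). Without DMSO replicate 2 the change was -0.44 (adjusted p = 7.57e-04). Over 14 alternative analyses the adjusted p ran from 7.57e-04 to 0.153, and 6 of them called the gene. Leaving out any library other than DMSO replicate 2 ended the call, with adjusted p of 0.068 and 0.11 without DMSO replicates 1 and 3 and of 0.14 to 0.15 without a TVA library. Ndufb2 lies at chr6:39592574-39603382 on the plus strand (GRCm38), where 1 annotated gene overlaps it on the same strand and 2 on the other strand. Whether counting used strand is not given in the sources used here, so reads of these genes cannot be told apart with certainty.

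Ndufb10, another accessory subunit of the membrane arm, had 162.8, 165.9 and 161 TPM in DMSO and 194.9, 180.5 and 178.4 TPM in TVA. The groups did not overlap, and DMSO replicate 2 lay with the other DMSO libraries. Ndufb10 rose by 0.18 on the log2 scale (SE 0.044, adjusted p = 0.049 by limma), from 163 ± 2.47 to 185 ± 9.01 TPM (SD, n = 3). The change was 0.19 without DMSO replicate 2 (adjusted p = 0.032). Only 3 of 14 alternatives called it, with adjusted p from 0.021 to 0.159. It was 0.058 and 0.11 without DMSO replicates 1 and 3, and 0.13 to 0.16 without a TVA library. The gene lies at chr17:24722060-24724478 on the minus strand, and no annotated gene overlaps it.

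Ndufab1, the mitochondrial acyl carrier protein, is both a complex I subunit and the carrier of mitochondrial fatty acid and lipoate synthesis. Its levels were 260.4, 113 and 292 TPM in DMSO and 125, 127 and 126 TPM in TVA. DMSO replicate 2 was the lowest of all 6 libraries, so the groups overlapped, while the other DMSO libraries lay far above every TVA library. The change of -0.70 (SE 0.31) had an adjusted p of 0.168 with all libraries, and without DMSO replicate 2 it was -1.13 with an adjusted p of 3.37e-05 (limma). Without DMSO replicate 3 it was -0.45 (adjusted p = 0.38). Of the 81 members it had, with all libraries, the largest fitted change, and its level was 222 ± 95.7 TPM in DMSO against 126 ± 1.3 TPM in TVA (SD, n = 3).

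Ndufa3, the complex I subunit with the highest level, had the largest positive change of that complex. It was at 345, 473 and 407 TPM in DMSO and at 490.3, 509 and 515 TPM in TVA. The groups were apart, DMSO replicate 2 being next to the TVA libraries, but the change of 0.32 (SE 0.10) had an adjusted p of 0.085. Without DMSO replicate 2 it was 0.43, with an adjusted p of 0.0063 (limma), and without DMSO replicate 1 it was 0.20, with 0.081. Ndufs4, an accessory subunit whose loss is known to destabilise the complex, was at 55.1, 60.5 and 55.2 TPM in DMSO and 63.9, 61.6 and 64.2 TPM in TVA (0.15, adjusted p = 0.082, 0.19 with an adjusted p of 0.019 without DMSO replicate 2, and 0.089 with 0.22 after the GC correction).

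**Figure D3:**
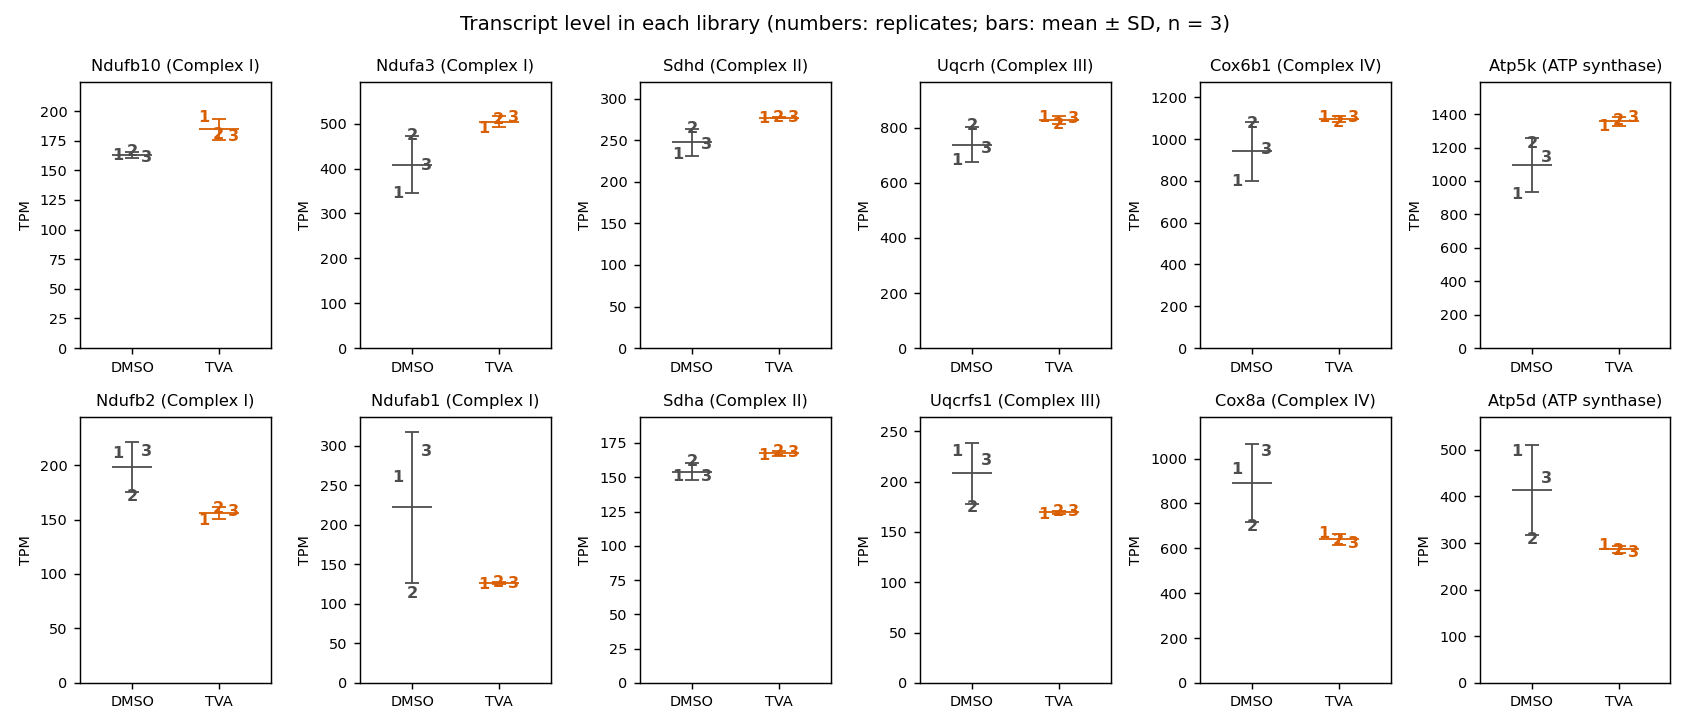
TPM (vertical axis, from 0) of 12 members in each library; the digit gives the replicate, and bars are the mean ± SD of 3 libraries in DMSO (grey) and TVA (orange). The 3 TVA libraries lie close together in every panel. DMSO replicate 2 is the DMSO library nearest to them in every panel, though only by little in that of Ndufb10.

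The levels of complex I subunits spanned 21.7-fold, from Ndufa11 at 21.1 TPM to Ndufa3 at 457 TPM (means of 6 libraries), with a median of 173 TPM. Only Ndufa11 and Ndufa5 (27.5 TPM) were under 50 TPM. Of the 50-base stretches of their annotated transcripts, 3.5% in Ndufa11 and 0% in Ndufa5 also occur in transcripts of other genes. Neither changed in its group mean by more than the spread of its libraries: Ndufa11 was at 21.0 ± 2.09 TPM in DMSO and 21.2 ± 0.955 TPM in TVA, and Ndufa5 at 26.5 ± 6.18 and 28.5 ± 0.958 TPM (SD, n = 3).

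Complex II, succinate dehydrogenase, links the chain to the TCA cycle and has 4 subunits, all encoded in the nucleus. All 4 fitted changes were above 0 (median 0.10), and none was called with all libraries (limma). An unadjusted p under 0.05 was found for 2 of 4, and for 31.8% of all genes tested. Sdhd, a membrane anchor that binds ubiquinone, had 233, 265 and 245 TPM in DMSO and 276, 277 and 278 TPM in TVA (0.17, SE 0.050, adjusted p = 0.073). Sdha, the flavoprotein that oxidises succinate, had 150.8, 161 and 150.2 TPM in DMSO and 166, 169 and 168 TPM in TVA (0.12, SE 0.040, adjusted p = 0.095). The TVA libraries of both genes were all above the DMSO libraries, by little, and DMSO replicate 2 was the highest of the DMSO libraries. Both were called without DMSO replicate 2, Sdhd at 0.22 (adjusted p = 0.0098) and Sdha at 0.15 (adjusted p = 0.025).

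Sdhb, the iron-sulphur subunit, and Sdhc, the other membrane anchor, showed smaller differences. Sdhb was at 223, 229 and 225 TPM in DMSO and 228, 233 and 231 TPM in TVA, with overlapping groups and a change of 0.03 (95% interval -0.05 to 0.11). Sdhc was at 154, 151 and 154 TPM in DMSO and 167, 157 and 162 TPM in TVA, all above DMSO, with a change of 0.08 (95% interval -0.01 to 0.17, adjusted p = 0.177). The levels of the 4 subunits lay within 1.67-fold of each other, from 158 TPM for Sdhc to 262 TPM for Sdhd, which is the narrowest span of the 5 complexes.

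Complex III, the cytochrome bc1 complex, had fitted changes in both directions. Of its 9 genes, 3 had all TVA libraries above DMSO and 3 all below, beside 27.3% and 11.2% of all genes. At an unadjusted p under 0.05 there were 5 (31.8% of all genes), and none was called (limma). Uqcrfs1, the Rieske iron-sulphur protein, had 229.7, 174 and 221 TPM in DMSO and 168, 171 and 170.3 TPM in TVA. DMSO replicate 2 was only just above the TVA libraries, and the change of -0.29 (SE 0.096, adjusted p = 0.095) became -0.41 without it (adjusted p = 5.86e-04). Uqcrq, a small subunit, was at 83.8, 60.5 and 64.7 TPM in DMSO and 55.0, 58.4 and 59.2 TPM in TVA, all below DMSO (-0.26, adjusted p = 0.154), and its change was -0.35 without DMSO replicate 2 (adjusted p = 0.041) and -0.12 without DMSO replicate 1 (adjusted p = 0.14).

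Other complex III subunits lay higher with TVA. Uqcr11 had 379, 412 and 408 TPM in DMSO and 459.7, 442 and 443 TPM in TVA, with no overlap (0.17, SE 0.044, adjusted p = 0.056, and 0.19 with an adjusted p of 0.025 without DMSO replicate 2). Uqcrh, the hinge protein that helps cytochrome c dock, had 682, 807 and 726 TPM in DMSO and 839, 813 and 832 TPM in TVA (0.17, adjusted p = 0.112, and 0.23 with an adjusted p of 0.0091 without DMSO replicate 2, but 0.11 with an adjusted p of 0.16 without DMSO replicate 1). Uqcrb, known as a ubiquinone-binding protein, had the largest positive change of complex III with all libraries, 0.21 (SE 0.10, adjusted p = 0.204), but 0.077 without DMSO replicate 1, less than Uqcr11 (0.13) and Uqcrh. Its groups overlapped, with 326, 439 and 418 TPM in DMSO and 437, 463 and 458 TPM in TVA. Of its 50-base stretches 43.2% are shared with transcripts of other genes, so its level is uncertain. Uqcr10 had the highest level of the complex, 841 ± 83.7 TPM in DMSO and 883 ± 27.3 TPM in TVA, and its groups overlapped (0.08, 95% interval -0.09 to 0.24, and -0.0087 without DMSO replicate 1).

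Complex IV, cytochrome c oxidase, had in Cox8a and Cox6a2 the largest negative changes after Ndufab1 and Atp5d in the main fit. That order depended on the processing, with Cox6a2 at -0.53 with a pseudocount of 0.1 and at -0.37 without DMSO replicate 2. The median change of complex IV was -0.02, where all genes had 0.04, and its sign turned in some alternatives. Of its 15 tested genes, 7 had a fitted change above 0 and 8 below. An unadjusted p under 0.05 was found for 5 (31.8% of all genes), and none was called (limma). Cox8a, a small subunit of the membrane domain, had 950.5, 697 and 1031 TPM in DMSO and 667, 636 and 619.6 TPM in TVA. The groups were apart, with DMSO replicate 2 just above the TVA libraries. The change of -0.46 (SE 0.13) had an adjusted p of 0.064, and -0.63 without DMSO replicate 2 had 2.75e-04.

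Cox5a and Cox5b, subunits on the matrix side, also had DMSO replicates 1 and 3 above all other libraries, but their groups overlapped. Cox5a had 535, 374 and 528 TPM in DMSO and 388, 386 and 368 TPM in TVA, so that DMSO replicate 2 lay among the TVA libraries (-0.31, adjusted p = 0.141, and -0.48 with an adjusted p of 3.07e-04 without it). Cox5b had 499, 406 and 511 TPM in DMSO and 392, 412 and 382 TPM in TVA (-0.25, adjusted p = 0.10, and -0.35 with an adjusted p of 0.0023 without DMSO replicate 2). Cox6b1, which faces the cytochrome c side, differed the other way, with 796, 1074 and 952 TPM in DMSO and 1105, 1077 and 1101 TPM in TVA. Its change was 0.23 (SE 0.096, adjusted p = 0.151), 0.33 without DMSO replicate 2 (adjusted p = 0.017) and 0.11 without DMSO replicate 1 (adjusted p = 0.18). Cox7c had the highest level in complex IV, 1268 ± 126 TPM in DMSO and 1332 ± 42.0 TPM in TVA, with overlapping groups (0.08, 95% interval -0.09 to 0.24). Its change was 0.0029 without DMSO replicate 1 and 0.15 without DMSO replicate 3.

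Several complex IV subunits have a second gene used in other tissues or conditions, and the T cells expressed mainly the common form. Cox4i2, known from lung and hypoxic cells, was at 0.32 TPM or less and made up at most 0.0417% of the TPM of Cox4i1 and Cox4i2 together. Cox6a2 and Cox7a1, the forms of heart and skeletal muscle, made up 0.502 to 0.919% and 0.213 to 0.595% of their families. Cox6b2, a testis form, made up 0.718 to 1.16%. Cox8b, Cox8c and Cox7b2 were listed at 0 in all 6 libraries, and Ndufa4l2, known to be induced by hypoxia, was at 0.28 TPM or less beside Ndufa4 at 761 ± 35.0 TPM in DMSO and 788 ± 18.0 TPM in TVA. These 4 and Cox4i2 are the 5 members that were not tested.

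Within the Cox7a family, Cox7a2 made up 58.5 to 60.6% and Cox7a2l, which is known to take part in joining complexes III and IV, 38.9 to 40.9%. The shares of Cox7a2 were 59.2 ± 0.92% in DMSO and 60.4 ± 0.27% in TVA (SD, n = 3). Cox6a2, at 4.68, 4.91 and 3.83 TPM in DMSO and 2.79, 3.76 and 2.71 TPM in TVA, was lower in every TVA library (-0.43, SE 0.12, adjusted p = 0.062). DMSO replicate 2 was its highest library, and its change without that library was -0.37 (adjusted p = 0.078). Its main form Cox6a1 had 629.7, 529 and 675 TPM in DMSO and 553, 529 and 517 TPM in TVA (-0.19, adjusted p = 0.166), with overlapping groups. Its change was -0.29 without DMSO replicate 2 (adjusted p = 0.0068), -0.12 without DMSO replicate 3 (adjusted p = 0.35) and -0.017 after the GC correction (adjusted p = 0.89).

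**Figure D4:**
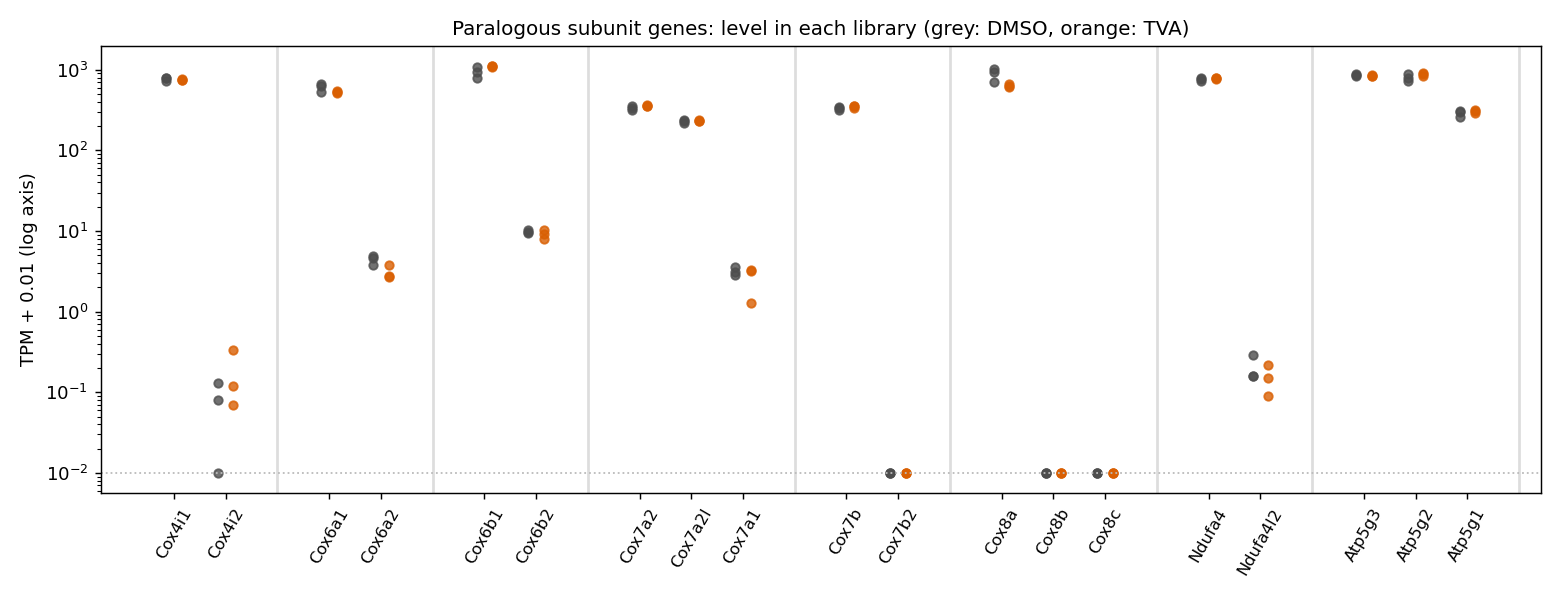
TPM + 0.01 on a log axis for paralogous subunit genes, with 1 point per library (grey for DMSO, orange for TVA) and vertical lines between families; the dotted line at 0.01 stands for genes listed at 0. Cox4i2 and Ndufa4l2 lie below 1 TPM, Cox6a2, Cox7a1 and Cox6b2 between 1 and 11 TPM, and the 3 Atp5g genes all above 100 TPM.

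The ATP synthase genes were among the most abundant transcripts of the group, with a median of 708 TPM. Of 15 genes, 7 had all TVA libraries above DMSO and 2 all below, beside 27.3% and 11.2% of all genes. The median change was 0.07, 4 had an unadjusted p under 0.05 (31.8% of all genes), and none was called (limma). Atp5k, subunit e of the membrane part, which is known for its role in pairing the enzyme into dimers, had 916, 1226 and 1142 TPM in DMSO and 1327, 1360 and 1382 TPM in TVA. No DMSO library reached the TVA range. The change was 0.32 (SE 0.098, adjusted p = 0.077), 0.41 without DMSO replicate 2 (adjusted p = 0.015) and 0.20 without DMSO replicate 1 (adjusted p = 0.033).

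Atp5d, the delta subunit of the central stalk, went the other way. It had 496, 307 and 439 TPM in DMSO and 294, 285 and 280.4 TPM in TVA, so that the groups were apart only by the small distance of DMSO replicate 2. The change of -0.50 (SE 0.15) had an adjusted p of 0.077, and without DMSO replicate 2 it was -0.70 with an adjusted p of 2.75e-04 (limma). Atp5b, the catalytic beta subunit, had the highest level of all 86 members, with 1580, 1505 and 1566 TPM in DMSO and 1468, 1481 and 1462 TPM in TVA. The TVA libraries were all lower, by a change of -0.08 (95% interval -0.16 to 0.01, adjusted p = 0.200).

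Atp5h (subunit d) and Atp5o (OSCP), parts of the peripheral stalk, had all TVA libraries above DMSO. Atp5h had 515, 579 and 550.3 TPM in DMSO and 602, 612 and 619 TPM in TVA (0.16, adjusted p = 0.075), and 47.9% of its 50-base stretches are shared with other genes' transcripts. Atp5o had 353, 382 and 359 TPM in DMSO and 405, 401 and 403 TPM in TVA (0.14, adjusted p = 0.063). Both were called without DMSO replicate 2, with adjusted p of 0.017 for Atp5h and 0.014 for Atp5o. The annotation holds 2 genes of the name Atp5o on chromosome 16, and the table has 1 value for them.

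The c-ring of ATP synthase is encoded by 3 genes, Atp5g1, Atp5g2 and Atp5g3, known to give the same mature protein. Atp5g3 made up 44.1 ± 2.81% of their TPM in DMSO and 41.9 ± 0.749% in TVA, and Atp5g2 41.0 ± 2.92% and 43.1 ± 0.574% (SD, n = 3), and Atp5g1 13.8 to 15.8% over the 6 libraries. The mean shares of Atp5g2 and Atp5g3 differed between groups by less than the SD of the DMSO libraries. Atp5g2 was at 721, 890.4 and 783 TPM in DMSO and 901, 832 and 879 TPM in TVA, with overlapping groups (0.13, adjusted p = 0.270, 0.21 with an adjusted p of 0.028 without DMSO replicate 2, and 0.060 with 0.52 without DMSO replicate 1). The 2 Atp5 genes that are not subunits were low, Atp5s at 3.25 ± 0.337 TPM in DMSO and 3.67 ± 0.392 TPM in TVA and Atp5sl at 23.2 ± 0.515 and 23.4 ± 0.732 TPM.

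Summed over its genes, the complexes differed little, with ratios of the TVA mean to the DMSO mean from 0.976 to 1.07. Complex I summed to 6559, 6516 and 6768 TPM in DMSO and 6830.0, 6759 and 6808 TPM in TVA, with overlapping groups. Complex II summed to 760.1, 806 and 775 TPM in DMSO and 837, 836 and 839 TPM in TVA, 1.07 times the DMSO mean, and the groups were apart. Complex III summed to 3153, 3447 and 3402 TPM in DMSO and 3558, 3511 and 3509 TPM in TVA (1.06 times), also apart. Single genes had all TVA libraries above DMSO in 27.3% of all genes tested, and the sums were not tested.

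ATP synthase summed to 9728, 10174 and 10156 TPM in DMSO and 10508, 10390 and 10480 TPM in TVA (1.04 times), with no overlap. Complex IV differed, at 7646, 7594 and 8387 TPM in DMSO and 7825, 7609 and 7628 TPM in TVA (0.976 times), and its groups overlapped. All 86 members took 2.79 to 2.96% of the TPM of a library. Since TPM values add to the same total in every library, these are shares of the mRNA measured and not amounts per cell.

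**Figure D5:**
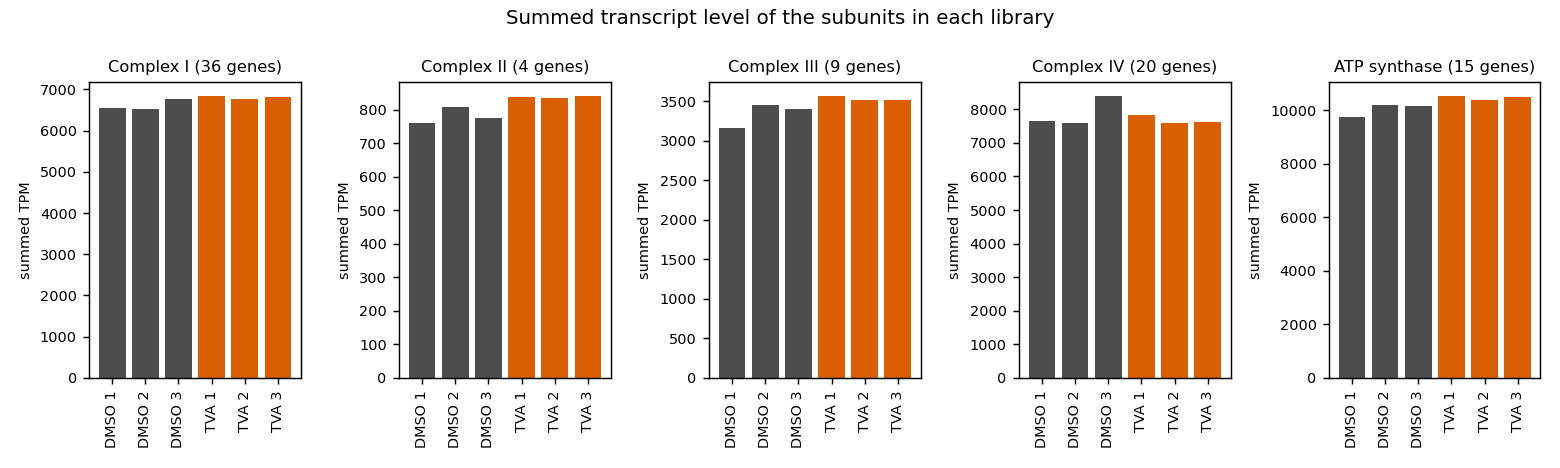
Summed TPM (vertical axis, from 0) of the genes of each complex in each library, with DMSO in grey and TVA in orange and 1 bar per library. Bars differ little within a panel; TVA bars are all higher for complexes II and III and ATP synthase, while for complexes I and IV at least 1 TVA bar is lower than a DMSO bar.

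Genes that build or serve these complexes were examined as lists. Of 52 assembly factors, all tested, 2 were higher and 2 lower (7.69%, near the 8.51% of all genes). Uqcc3, a complex III assembly factor, rose from 56.8 ± 1.82 to 64.1 ± 1.34 TPM (0.17, adjusted p = 0.044), and Coa3, which acts on the translation and assembly of COX1, from 112 ± 3.91 to 125 ± 2.09 TPM (0.16, adjusted p = 0.048). Sco2, a copper chaperone of complex IV, fell from 28.0 ± 2.11 to 22.5 ± 1.35 TPM (-0.30, adjusted p = 0.037). Pet117, another complex IV assembly factor, was at 4.27, 4.31 and 13.3 TPM in DMSO and at 1.77 TPM, 0 and 0 in TVA (-2.39, SE 0.50, adjusted p = 0.033). A gene on the same strand overlaps Pet117, so its reads are uncertain. Each of these 4 calls was lost without any one of the libraries DMSO replicate 3, TVA replicate 2 or TVA replicate 3, those of Uqcc3, Coa3 and Sco2 also without TVA replicate 1, and those of Uqcc3 and Coa3 also without DMSO replicate 1. The highest adjusted p over the alternatives was 0.181 for Uqcc3, 0.193 for Coa3, 0.149 for Sco2 and 0.140 for Pet117. After the GC correction the change of Sco2 was -0.17, with an adjusted p of 0.069. Uqcc3 and Coa3 were also not called with median-of-ratios scaling (adjusted p = 0.11 for both) or quantile normalization (0.069 and 0.083), and none of the 4 was called without the filter on low values (0.058 to 0.075).

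Among 17 genes of electron carriers and ubiquinone synthesis, 2 were called, both higher (11.8%, beside 8.51% of all genes called and 5.28% called higher). Etfdh, the enzyme that passes electrons from fatty acid and amino acid oxidation to ubiquinone, had 48.0, 49.97 and 48.4 TPM in DMSO and 68.5, 67.9 and 70.4 TPM in TVA. The groups were far apart, DMSO replicate 2 lay with the other DMSO libraries, and the change of 0.49 (SE 0.037) had an adjusted p of 0.00103. It was called in all 14 alternatives, with adjusted p from 3.00e-04 to 0.0143. Coq3, a methyltransferase of ubiquinone synthesis, rose from 15.1 ± 0.36 to 17.8 ± 0.243 TPM (0.22, adjusted p = 0.026), a call that was lost without DMSO replicate 3 (adjusted p = 0.054) or any TVA library (0.086 to 0.14). Coq3 was also not called with median-of-ratios scaling (0.052), with quantile normalization (0.054), with the replicate block (0.065) or after the GC correction, where its change was 0.14 (adjusted p = 0.068). Cycs, cytochrome c itself, was at 192 ± 6.36 TPM in DMSO and 205 ± 4.55 TPM in TVA (0.09, adjusted p = 0.149, and 0.02 after the GC correction).

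Of 10 genes for ATP export, ATP synthase inhibition, pores and uncoupling, 8 were tested and 1 was called (12.5%, beside 8.51% of all genes). Ucp2, a carrier of the inner membrane in the uncoupling protein family, rose from 269 ± 13.9 to 315 ± 6.02 TPM (0.23, adjusted p = 0.028), a call that was lost without DMSO replicate 3 (adjusted p = 0.074) or any TVA library (0.11 to 0.14). The call was also lost without the filter on low values (0.051) and with the replicate block (0.053). Slc25a5, an ADP/ATP carrier, was at 1409 ± 22.4 and 1434 ± 7 TPM (0.03, adjusted p = 0.632, with a sign that turned under both scalings and the GC correction), and Atpif1, the inhibitor of ATP synthase, at 46.0 ± 1.09 and 41.7 ± 2.76 TPM (-0.14, adjusted p = 0.122).

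None of the 16 tested transcription regulators of these genes, of 17 listed, was called (limma), while 4 had an unadjusted p under 0.05 (31.8% of all genes). Nrf1, the factor whose letters were found in 17 of the windows, was at 34.7 ± 0.937 TPM in DMSO and 38.5 ± 0.217 TPM in TVA (0.14, adjusted p = 0.056, and 0.15 with an adjusted p of 0.048 without DMSO replicate 2). Yy1 was at 101 ± 13.1 and 87.0 ± 2.1 TPM (-0.21, adjusted p = 0.147, and -0.31 with an adjusted p of 0.0080 without DMSO replicate 2). No other alternative called Yy1, and its adjusted p (limma) reached 0.2998. Ppargc1a, the coactivator known for raising mitochondrial mass in muscle and brown fat, was at 0.02 TPM or less in every library. Ppargc1b was at 2.86 ± 0.352 and 2.99 ± 0.07 TPM.

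The TCA cycle and both ribosomal protein groups of the same fit also had a smaller share called than the 8.51% of all genes. Larger shares were seen for the lists of carriers and ubiquinone synthesis (11.8%) and of ATP export, pores and uncoupling (12.5%). No difference in share was tested. Of 13 TCA cycle enzymes none was called (limma), with a median change of 0.07. An unadjusted p under 0.05 was found for 4 (31.8% of all genes). Of 78 mitochondrial ribosomal protein genes 1 was higher and 1 lower (2.56%, median 0.03), and of 86 tested cytosolic ribosomal protein genes 1 was lower (1.16%, median -0.04). Without DMSO replicate 2 the shares were 23.1%, 29.5% and 24.4%, where the respiratory chain and ATP synthase had 33.3% and all genes 20.6%.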

How the data were processed

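RNA-seq was measured in 6 libraries (3 DMSO, 3 TVA), grouped and numbered by the sample titles; table columns were matched to libraries by the sample descriptions. The authors deposited 1 table of TPM per gene symbol, used as deposited. The submitters' processing notes name STAR, RSEM and mm10 without a role or version, and the annotation is not given in the sources used here. TPM keeps no depth, so the number of libraries limits the precision.

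Genes reaching 1 TPM in 3 or more libraries entered a test on log2(TPM + 1) with limma 3.58.1 (moderated variances with a trend) in R 4.3.3, with group as the only term, over the whole table. The code was tested on simulated data. Alternatives were a pseudocount of 0.1, no filter, a minimum mean of 10 TPM, median-of-ratios and quantile scaling, no trend, a replicate block, a loess correction (span 0.5) for transcript GC content, and each library left out. Loci, GC content and shared stretches came from the GENCODE annotation of GRCm38 and promoter windows from RefSeq (GRCm38.p6). No protein sequences were used here. Figures were drawn with matplotlib 3.10.9. The values of 1 member are not reported here and are left out of the figures.

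The members and lists were chosen with earlier results of these data known. The genes named were the members called, the member of each complex with the highest level, largest rise and largest fall, the paralogue families, the Sdh genes and the called genes of other lists; the other genes named were chosen after their values were seen.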

Additional observations from a re-analysis of the deposited data

How the results depend on the processing

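The count of members called depended on the processing, and the cause was not tested. Of the main 2 (1 higher, 1 lower), 2 were called with a pseudocount of 0.1, 1 with a mean of at least 10 TPM, with median-of-ratios scaling and with quantile normalization (0 higher and 1 lower in each), 0 without a filter and 0 without the variance trend (0 higher, 0 lower), and 6 after the GC correction (5 higher, 1 lower), where 9.64% of all genes were called. Leaving out 1 library gave 0 to 27 members (0 to 17 higher, 0 to 10 lower). The highest count was without DMSO replicate 2. Without DMSO replicate 1 only Atp5k was called, and without DMSO replicate 3 or any TVA library none was. All genes called numbered 925, and 494 without a filter, 608 with a mean of at least 10 TPM and 102 to 2242 with 1 library left out. Higher genes were 62.1% of the calls, but 35.4% with median-of-ratios scaling and 46.1% with quantile normalization. The share was 54.7% without a filter and 42.7% with the replicate block.

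The block on replicate number gave 218 genes and 0 members (0 higher, 0 lower). The correlations of deviations between libraries of the same number were 0.16, 0.03 and -0.08, which does not show that a number marks a pair.

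The median change of complex I (0.046) was 0.008 with median-of-ratios scaling, 0.03 with quantile normalization, 0.08 with the GC correction and 0.031 to 0.064 with 1 library left out. That of complex II (0.10) was 0.062 with median-of-ratios scaling. That of complex IV (-0.024) was 0.039 with a mean of at least 10 TPM, -0.062 with median-of-ratios scaling, -0.057 with quantile normalization and -0.07 to 0.033 with 1 library left out, so its sign is not settled. That of ATP synthase (0.067) was 0.029 with median-of-ratios scaling and 0.041 with quantile normalization. Of 600 values for 43 named genes under these alternatives, 498 kept their direction and side of the threshold, 65 lost and 30 gained a call, and 7 changed sign. Cyc1 (-0.022) went to 0.17 with the GC correction, where it was called (adjusted p = 0.040), and to 0.031 without DMSO replicate 1 (-0.057 to 0.031 with 1 library left out). Slc25a5 (0.026) went to -0.012 with median-of-ratios scaling, -0.016 with quantile normalization and -0.0074 with the GC correction. Sdhb went to -0.0072 with median-of-ratios scaling and Uqcr10 to -0.0087 without DMSO replicate 1 (-0.0087 to 0.13 with 1 library left out). Depth, counting error and the mixture of cells could not be assessed from TPM.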

Other observations

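The fitted changes varied with transcript GC content and less with transcript length. Across the 81 tested members the rank correlation of change with GC content was -0.27, and with transcript length -0.16 (Spearman, across genes, which are not independent). Across 10807 genes tested with a known GC content the values were -0.40 and 0.055. The members' transcripts were short, with a median of 607 nt, where all genes had 1319 nt, and their median GC content was 51.7% against 50.4%.

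Some members share sequence with other genes, and their TPM depends on how such reads were assigned. The share of 50-base stretches that also occur in transcripts of other genes was 68.5% for Atp5l, 47.9% for Atp5h, 43.2% for Uqcrb, 37.0% for Ndufb4, 35.8% for Ndufs3 and 31.1% for Ndufs5.

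The complex I assembly factor Ndufaf8, which was named after its values were seen, had 99.1, 60.8 and 101 TPM in DMSO and 56.5, 47.3 and 52.2 TPM in TVA. All TVA libraries were below DMSO, with a change of -0.70 (SE 0.18, adjusted p = 0.055 by limma), and -0.94 without DMSO replicate 2 (adjusted p = 2.22e-04).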
